A study of Mus musculus with 6 samples.

Results

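The smooth muscle contractile genes of the mammary myoepithelium were followed here in epithelium with and without Wwox. The set holds 10 genes, Acta2, Actg2, Tagln, Cnn1, Cald1, Tpm1, Tpm2, Myh11, Myl9 and Mylk, of 18193 genes that the arrays name. All 25 probe sets annotated with exactly 1 of these symbols were taken. A probe set is a group of short array probes read together as 1 value, and 6 of the 10 genes have several. The genes were chosen on measured values of the same KO and WT arrays. Cald1 was already known to differ strongly between KO and WT on a probe set dimmer than its brightest one. Levels and differences of the 10 genes are therefore given as a description, with no test.

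Mammary epithelial organoids, the pieces of duct and alveolus that remain after the gland is digested, had been prepared from 6 mice of 8 weeks of age on a mixed (129/J; C57BL/6) background, and the RNA of each mouse went onto 1 Affymetrix array. The 3 KO mice (KO5, KO6 and KO7) were BK5-cre + and WWOX flox/flox, and the 3 WT mice (WT1, WT2 and WT3) were BK5-cre - and WWOX flox/flox, so that every mouse carried the floxed alleles. The BK5-cre transgene uses keratin 5 regulatory sequence of cattle and acts in epithelial lineages from embryonic life on, and deletion in cells of other origin was not analysed here. As no control carried Cre, an effect of Cre itself and an effect of Wwox loss cannot be told apart. Wwox, the targeted gene, lay at 7.77, 7.63 and 7.72 on the log2 scale in WT1, WT2 and WT3 and at 6.23, 5.87 and 5.96 in KO5, KO6 and KO7, a difference of -1.69 (standard error 0.13, limma adjusted p = 0.0228). The sources used here do not say whether this probe set reads the deleted part of the gene, so the size of the difference is not a measure of how complete the deletion was. All values below are log2 RMA values, on which a step of 1 is a doubling, and differences are KO minus WT. The brightness of a probe set depends on its probes, so levels are set side by side only between arrays, never between genes. In RNA of a whole tissue, fewer cells of a type and less RNA per cell cannot be told apart.

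Myoepithelial cells wrap the ducts and alveoli of the gland and contract under oxytocin to eject milk. They are epithelial cells, yet they hold the actin and myosin apparatus of smooth muscle, which the wall cells of blood vessels share. Many genes of this apparatus are switched on by serum response factor (SRF) with cofactors of the myocardin family, through a DNA element called the CArG box. Cald1, Tpm1 and Tpm2 are also used outside muscle, and alternative splicing gives them smooth muscle and non-muscle forms.

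The promoters were searched for CArG boxes, since this element is the one the set is known for. Windows of 300 bases, from 250 before to 50 after the gene start (RefSeq, GRCm38.p6), were at hand for 7 of the 10 genes, Acta2, Cnn1, Cald1, Tpm1, Tpm2, Myl9 and Mylk, with 2 windows for Cald1. Tagln, Actg2 and Myh11 matched no window. The box spans 10 bases and reads alike on both strands. A full box stood in the window of 1 of the 7 genes, Myl9, and in 535 of 32851 promoter windows of this length overall (1.63%). A box with 1 of its middle bases off, a search added after the strict one, stood in the windows of Acta2, which has a pair of them, and Myl9, and in 2792 of all windows (8.5%). These stretches are shown because they are the ones in the set that hold such boxes, which are in capitals.
Myl9, chr2:156775283-156775394, plus strand: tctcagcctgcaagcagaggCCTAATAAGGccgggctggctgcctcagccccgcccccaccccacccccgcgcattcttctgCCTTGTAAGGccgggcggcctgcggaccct
Acta2, chr19:34255378-34255477, minus strand: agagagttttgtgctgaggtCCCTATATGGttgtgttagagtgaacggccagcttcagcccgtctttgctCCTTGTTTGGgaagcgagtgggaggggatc
The full box of Myl9 begins 161 bases before the gene start and its other box 99 bases before it. The boxes of Acta2, each 1 base off, begin 84 and 34 bases before the start. A match is a stretch of letters and not a measured binding site, and no match says only that the letters are not in the window.

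Measured once per gene, on its brightest probe set (highest mean over the arrays), the contractile set lay close to the same level in KO and WT epithelium. The 10 differences ran from -0.26 for Tpm2 to 0.43 for Myl9, with a median of 0.07, and 6 were above 0 and 4 below. In each of the 10 genes the KO and WT arrays overlapped, as they did for 13946 of all 18193 genes. The median over the brightest probe sets of all 18193 genes was -0.06. At an unadjusted p under 0.01 and a difference of at least 2-fold, the limits used in the study, 0 of the 10 were called in either direction. Over all genes 0.517% were called higher and 0.462% lower on the brightest probe set, and nothing is read from the count of the members against these shares.

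**Figure D1:**
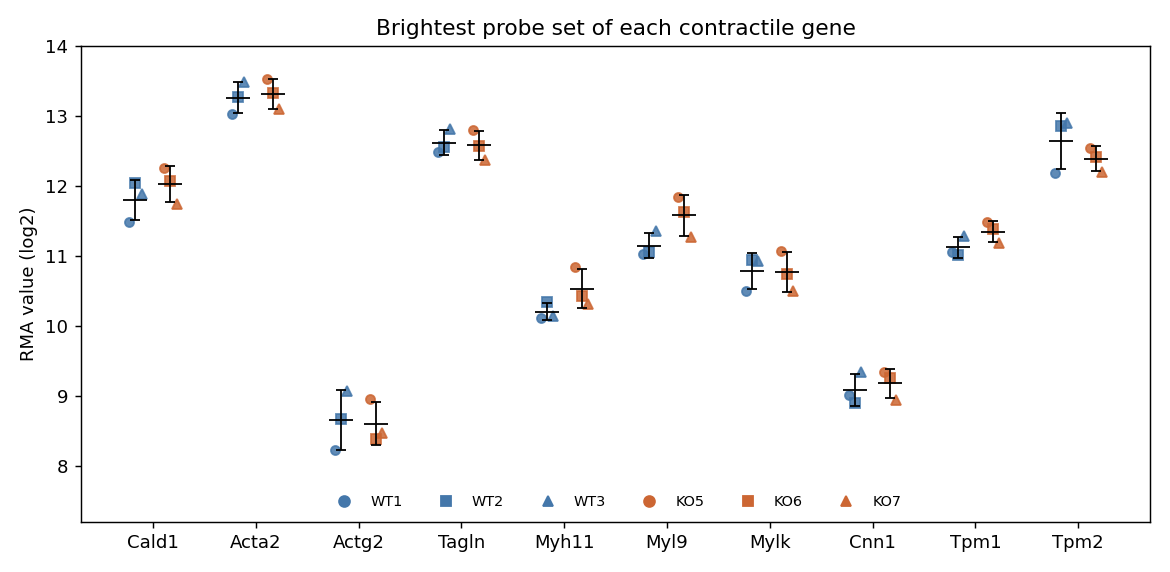
Log2 RMA value of the brightest probe set of each of the 10 contractile genes on each array (blue WT, orange KO; bars give the mean and SD, n = 3 per group). KO and WT points overlap for all 10 genes, as the arrays do for 13946 of all 18193 genes. KO5 is the highest KO array in each of the 10.

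Acta2, smooth muscle alpha-actin, is the actin of the myoepithelial contractile filament. Its brightest probe set (1416454_s_at) read 13.03, 13.27 and 13.48 in WT1, WT2 and WT3 and 13.52, 13.32 and 13.09 in KO5, KO6 and KO7. The group means were 13.26 ± 0.22 in WT and 13.31 ± 0.21 in KO (SD, n = 3 each), a difference of 0.05 with a standard error of 0.16. KO5 was the highest array and WT1 the lowest, and the groups overlapped across nearly their whole range. The suffix _s_at marks probes that may also match transcripts of other genes. The remaining probe sets of Acta2 were far dimmer, at 6.66, 6.52 and 6.93 in WT against 6.95, 6.23 and 6.00 in KO (1444105_at, difference -0.31) and at 3.24, 3.67 and 3.88 against 3.92, 3.88 and 3.87 (1456658_at, difference 0.29). Both overlapped between groups, and they leaned in opposite directions.

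Actg2, smooth muscle gamma-actin, has 1 probe set (1422340_a_at). It read 8.22, 8.67 and 9.07 in WT1, WT2 and WT3 and 8.95, 8.38 and 8.46 in KO5, KO6 and KO7, a difference of -0.05 (standard error 0.24). The KO arrays lay inside the span of the WT arrays. Neither actin thus showed a difference larger than the spread between mice.

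Tagln encodes transgelin (SM22), a protein that binds actin filaments in smooth muscle. Its probe set (1423505_at) read 12.48, 12.55 and 12.82 in WT and 12.79, 12.57 and 12.37 in KO, for means of 12.62 ± 0.18 and 12.58 ± 0.21 (SD, n = 3 each) and a difference of -0.04 (standard error 0.15). Cnn1, calponin, which binds actin and slows the myosin ATPase, read 9.01, 8.89 and 9.34 in WT and 9.33, 9.26 and 8.93 in KO (1417917_at), a difference of 0.09. Both genes had KO5 as the highest and KO7 as the lowest KO array, and WT3 as the highest WT array, and the groups overlapped.

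Cald1 encodes caldesmon, which ties actin to tropomyosin and holds back the myosin ATPase until calcium rises. It has 5 probe sets, and they did not give 1 answer. The brightest (1424769_s_at) read 11.48, 12.04 and 11.88 in WT1, WT2 and WT3 and 12.26, 12.07 and 11.75 in KO5, KO6 and KO7, a difference of 0.23 with a standard error of 0.19. KO7 lay below WT2 and WT3, so the groups overlapped.

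The next probe set of Cald1 in brightness (1424770_at) read 9.29, 9.36 and 8.82 in WT and 10.62, 10.26 and 10.24 in KO, for means of 9.16 ± 0.29 and 10.37 ± 0.21 (SD, n = 3 each) and a difference of 1.22 (standard error 0.18), or 2.33-fold. The third (1424768_at), which chose the gene, read 6.85, 6.28 and 6.09 in WT and 9.35, 8.75 and 8.75 in KO, for means of 6.41 ± 0.39 and 8.95 ± 0.35 and a difference of 2.54 (standard error 0.24), or 5.83-fold. On both probe sets every KO array lay above every WT array, which is a description, since the gene was chosen for it. The dimmest probe sets gave smaller differences. On 1433147_at the arrays read 5.40, 6.09 and 4.93 in WT and 6.29, 5.98 and 6.38 in KO, a difference of 0.74 with overlap, since KO6 lay below WT2. On 1433146_at they read 4.68, 4.51 and 4.57 against 4.75, 4.85 and 4.73, a difference of 0.19 with no overlap. All 5 differences of Cald1 pointed to higher values in KO, and their sizes spanned from 0.19 to 2.54. The positions of these probe sets on the transcripts were not analysed here, so which caldesmon form each one reads is not known from the files.

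Tropomyosins are coiled-coil proteins that lie along the actin filament and set where myosin can bind. Tpm1 repeated the pattern of Cald1 in smaller size. Its brightest probe set (1423721_at) read 11.06, 11.01 and 11.29 in WT and 11.48, 11.38 and 11.18 in KO, a difference of 0.23 (standard error 0.13) with overlap. Its next probe set (1423049_a_at, whose suffix marks probes shared by several transcripts of the gene) read 10.14, 9.79 and 10.11 in WT and 10.76, 10.74 and 10.53 in KO, a difference of 0.66 (standard error 0.14). Here too every KO array was above every WT array, with a difference under 2-fold. The third (1456623_at) read 6.57, 6.04 and 5.82 in WT and 7.61, 7.62 and 8.12 in KO, for means of 6.14 ± 0.39 and 7.78 ± 0.29 (SD, n = 3 each) and a difference of 1.64 (standard error 0.23), or 3.12-fold, with every KO array above every WT array. KO7 was its highest array, unlike on the brightest probe set, where KO7 was the lowest KO array. The dimmest, 1447713_at, ran the other way, with all KO arrays (3.47, 3.43 and 3.35) below all WT arrays (3.71, 3.57 and 3.58), a difference of -0.20 at a level under the lower quartile of all probe sets (4.03).

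**Figure D2:**
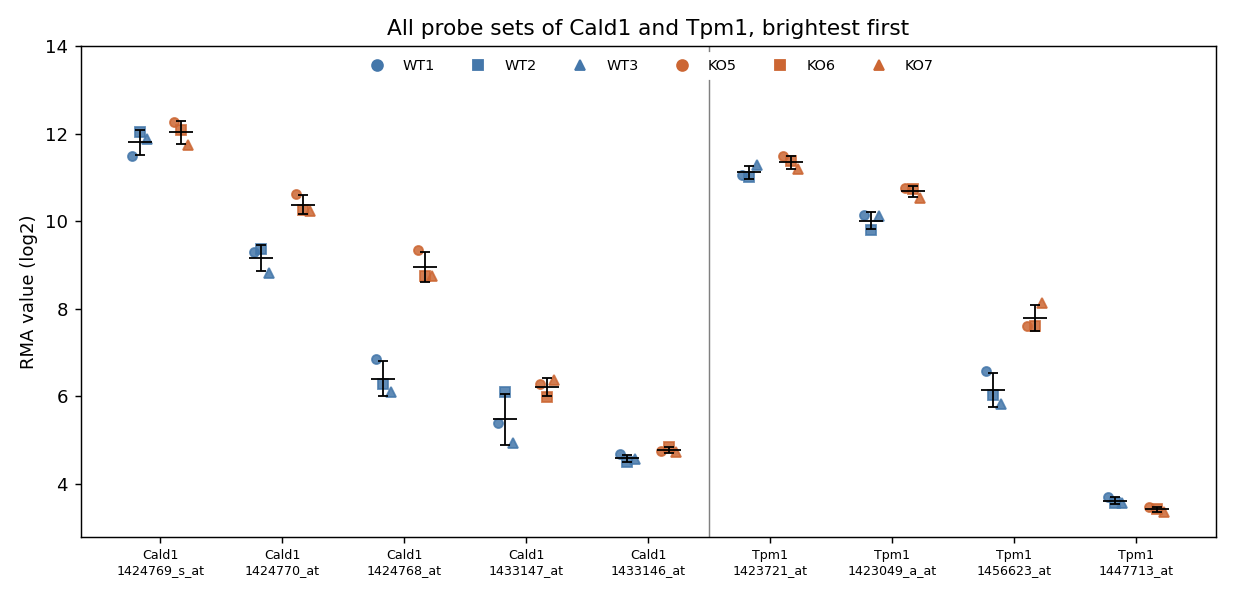
Log2 RMA value on each array for the 5 probe sets of Cald1 and the 4 of Tpm1, brightest first within each gene (bars give the mean and SD, n = 3 per group). The groups overlap on the brightest probe set of either gene and lie 2.54 apart on the third of Cald1 and 1.64 apart on the third of Tpm1.

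Tpm2, beta-tropomyosin, has 4 probe sets as well, and all overlapped between groups. The brightest (1419738_a_at) read 12.18, 12.85 and 12.90 in WT and 12.55, 12.42 and 12.19 in KO, a difference of -0.26 (standard error 0.21) in which WT1 stood apart from the other WT arrays. The second (1425028_a_at) read 11.24, 11.72 and 11.98 against 11.80, 11.57 and 11.32, a difference of -0.08. The dim ones differed by -0.03 (1419739_at) and 0.01 (1449577_x_at, whose suffix marks probes that may bind other sequences). Tpm2 therefore showed none of the spread between probe sets seen in Tpm1.

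Myh11, the smooth muscle myosin heavy chain, is the motor of the apparatus. Its brighter probe set (1448962_at) read 10.12, 10.34 and 10.14 in WT and 10.84, 10.43 and 10.31 in KO, a difference of 0.33 (standard error 0.16). Its dimmer one (1418122_at) read 6.26, 6.88 and 6.65 in WT and 7.12, 6.87 and 6.48 in KO, a difference close to that of the brighter one. KO5 was the highest array on both, and the groups overlapped on both.

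Myl9, the regulatory light chain whose phosphorylation starts contraction, had the widest difference among the brightest probe sets. It read 11.03, 11.06 and 11.35 in WT and 11.84, 11.63 and 11.26 in KO (1452670_at), for means of 11.14 ± 0.18 and 11.58 ± 0.29 (SD, n = 3 each) and a difference of 0.43 (standard error 0.17). KO5 and KO6 were above every WT array, and KO7 was below WT3. Myl9 is also the gene of the set with the full CArG box shown above, though Tagln, Actg2 and Myh11 had no window to search. A link of the box to the difference was not tested.

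Mylk, the kinase that phosphorylates the light chain, has 3 probe sets. The brightest (1425506_at) read 10.49, 10.95 and 10.93 in WT and 11.07, 10.75 and 10.49 in KO, a difference of -0.02 (standard error 0.19). The next (1425505_at) read 10.57, 10.59 and 10.59 in WT, within 0.01 (SD) of each other, and 11.17, 10.97 and 10.66 in KO, a difference of 0.35 (standard error 0.15) with all KO arrays above. The dim one (1425504_at) differed by 0.03. Mylk was thus the single gene besides Cald1 and Tpm1 with a probe set that kept the groups apart.

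Counted over all 25 probe sets of the 10 genes, 17 differences were above 0 and 8 below, with a median of 0.19 against -0.03 over all 45037 probe sets tested. Called higher were 3, the pair of Cald1 and the 1 of Tpm1 given above, and called lower 0; over all probe sets 1.69% were called higher and 0.300% lower. On 6 probe sets every KO array was above every WT array (10.7% of all probe sets), on 1 every KO array was below (13.6%), and 18 overlapped. As Cald1 chose the set, its calls were fixed by the choice, and these counts are printed beside the shares with no reading. Without Cald1 and Tpm1, an alternative chosen after seeing the data, the 16 remaining probe sets had a median of 0.02 and 0 calls.

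**Figure D3:**
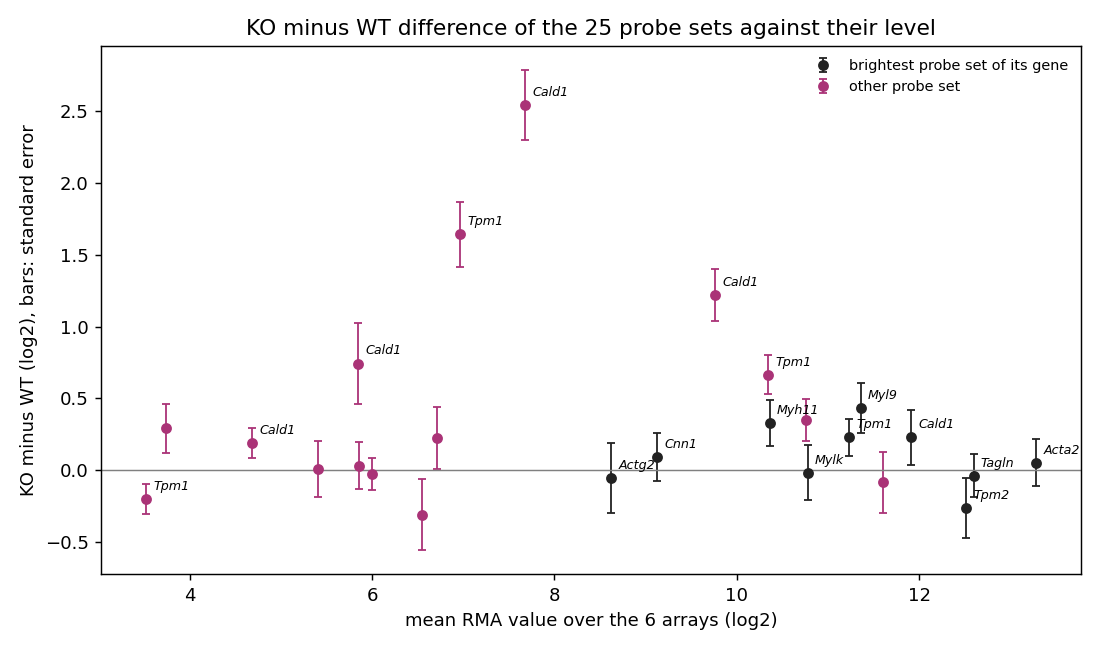
Difference between KO and WT (log2, bars give the standard error) of the 25 probe sets against their mean level over the 6 arrays, with the brightest probe set of each gene in black and the others in purple. Black points lie between -0.26 and 0.43, and the 3 called probe sets, at 1.22, 1.64 and 2.54, are purple ones of Cald1 and Tpm1.

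A gap between the probe sets of 1 gene was not particular to the contractile set. Of 9010 genes with several probe sets, 576 (6.39%) had one whose difference exceeded that of the brightest by at least 1 on the log2 scale. Among the 6 contractile genes with several, this gap was 2.32 for Cald1, 1.41 for Tpm1, 0.37 for Mylk, 0.27 for Tpm2, 0.24 for Acta2 and -0.10 for Myh11. Over all probe sets that are not the brightest of their gene, the median difference was -0.01, and over the 15 of the contractile genes it was 0.23. The 15 hold the Cald1 probe set that chose the set, so nothing is read from this median. Without Cald1 and Tpm1, an alternative chosen after seeing the data, it was 0.02.

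A measure of RNA quality moved with the groups. The signal at the 3' end minus that at the 5' end of the control transcripts Gapdh and beta-actin, averaged per array, was 0.96, 2.13 and 1.81 in WT1, WT2 and WT3 and 0.55, 0.60 and 0.54 in KO5, KO6 and KO7. The 3 WT values exceeded the 3 KO values, so that the measure and the genotype can be told apart only in part. With this measure as a covariate the third probe set of Cald1 differed by 1.92, 1424770_at of Cald1 by 1.15 and 1456623_at of Tpm1 by 1.05. The third probe set of Cald1 was still called with the covariate, and 1424770_at and 1456623_at were not. These values and calls are a description like the others of the set, and the part of RNA quality in them was not tested. The brightest probe sets moved too, to a median of 0.42, with Cald1 at 0.74, Tpm2 at 0.41 and Mylk at 0.43. In this measure WT1 was the WT array nearest to the KO arrays. WT1 read higher than WT2 and WT3 on the third probe sets of both Cald1 and Tpm1. On 1424770_at of Cald1 the highest WT array was WT2, at 9.36, against 9.29 in WT1. A link of these orders to RNA quality was not tested.

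Within each group the 10 genes went up and down together. On the brightest probe sets KO5 was the highest KO array in 10 of 10 genes, against 27.2% of all genes, and KO7 was the lowest in 9, against 28.6%. In WT, WT1 was the lowest array in 8 of 10 genes (42.0% of all genes) and WT3 the highest in 7 (38.8%). After centring each gene on its mean, the average of the 10 genes was -0.27, -0.02 and 0.14 in WT1, WT2 and WT3 and 0.28, 0.04 and -0.18 in KO5, KO6 and KO7. The spread between mice of 1 group was therefore larger than the difference between the groups. Over the 45 pairs of genes the Pearson correlation of values across the 6 arrays had a median of 0.69, and that of deviations from the group means a median of 0.81, given as a description since the genes share the same 6 arrays.

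**Figure D4:**
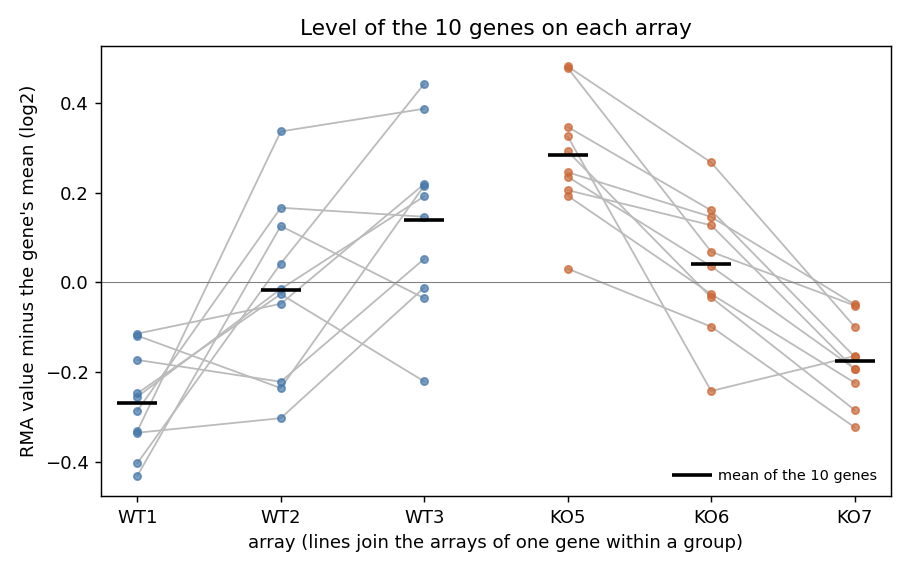
Log2 RMA value of the brightest probe set of each contractile gene on each array, minus the mean of that gene (points, 1 per gene; grey lines join the arrays of a gene within a group; black bars give the mean of the 10 genes). KO5 is the highest and WT1 the lowest on average, at 0.28 and -0.27, and both groups straddle 0.

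The genes whose pattern over the 6 arrays was most like the average of the set were sought among 7262 genes with a mean of at least 6 and an SD of at least 0.2. They were Naalad2 (Pearson r of 0.99), a peptidase gene, Maf (0.98), a transcription factor gene, Enc1 (0.98), Matn2 (0.98), a gene of a matrix protein, and Rbm24 (0.97), a gene of an RNA-binding protein. Their own differences between KO and WT ran from 0.16 for Naalad2 to 0.44 for Matn2.

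Genes around the contractile set that did not enter its choice were tested by limma. Of 63 listed regulators, partners and signalling genes, 56 were measured, and on the brightest probe set limma called 2 of them higher and 0 lower. Over all genes 0.517% were called higher and 0.462% lower on the brightest probe set. With an unadjusted limit of 0.05 and no fold limit, limma gave 11 of the 56 higher and 2 lower, and at an adjusted p under 0.05 it gave 0. The share of all genes at the limit of 0.05 is not given here. Nothing is therefore read from the counts at that limit, here or for the single lists below. The median difference of the 56 genes was 0.15.

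All 12 regulators of smooth muscle transcription were measured and 0 were called, with a median of 0.19 (limma at an unadjusted limit of 0.05 gave 2 higher and 0 lower). Tead1, a factor of the Hippo pathway that also binds muscle promoters, differed by 0.77 (standard error 0.18, adjusted p = 0.0932 by limma), with all KO arrays above all WT arrays, and by 0.38 with the covariate for the 3' minus 5' difference. Mrtfa, a myocardin-related cofactor of SRF, differed by 0.72 with an adjusted p of 0.356 by limma. It was at -0.68 with that covariate, and at 1.22, past the limits, without WT1. SRF itself differed by 0.38 (adjusted p = 0.391 by limma).

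Among the cytoskeletal partners and paralogues, 30 of 31 were measured, with a median of 0.22, and 2 were called. Synm, synemin, an intermediate filament protein found in muscle and myoepithelium, read 6.69, 5.89 and 5.42 in WT and 8.31, 7.84 and 7.26 in KO, a rise of 1.80 (standard error 0.36, adjusted p = 0.0707 by limma). Flna, filamin A, which crosslinks actin, read 10.30, 9.04 and 9.16 in WT and 10.82, 10.77 and 10.36 in KO, a rise of 1.15 (standard error 0.33, adjusted p = 0.127 by limma). WT1 was the highest WT array for both. With the covariate for the 3' minus 5' difference neither was called, as Synm was at 0.91 and Flna at -0.04. Flna was called with all arrays and without WT1, but not without any 1 of the other 5 arrays, at 0.92 to 1.30.

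Several of these genes, like Cald1, were called on a probe set dimmer than their brightest one and not on the brightest. Counting any probe set, 8 of the 56 genes (14.3%) were called higher and 0 lower, 6 of the 8 solely on dimmer probe sets. Over all 18193 genes 2.95% had a probe set called higher and 0.550% one called lower, and the mean number of probe sets per gene was 2.41 among the 56 and 1.92 among all genes. The difference between these shares was not tested. Rock1, a kinase that acts on myosin phosphatase, was at 2.04 on a dimmer probe set, Ednrb, an endothelin receptor, at 1.36, Ppp1r12a, the targeting subunit of myosin phosphatase, at 1.13, Actn1, alpha-actinin, at 1.08, and Tns1, tensin, at 1.09. Lpp, a focal adhesion protein rich in smooth muscle, was called on 3 of its 8 probe sets, at 1.97, 1.70 and 1.30. On their brightest probe sets these 6 genes were not called, and they did not all point the same way. Rock1 was there at -0.34, with each KO array below each WT array (adjusted p = 0.218 by limma), and Ppp1r12a at -0.19, while Ednrb was at 0.45, Tns1 at 0.44, Lpp at 0.22 and Actn1 at 0.22.

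The other genes with a CArG box were looked at on their own. Of 50 with a window, 9 (18%) held a full box, Acta1, Actc1, Actg1, Cnn2, Fhl1, Fhl2, Myl6, Srf and Vcl, and 0 of the 9 were called on the brightest probe set. Their differences ran from -0.28 for Actc1 to 0.69 for Myl6, a myosin essential light chain (adjusted p = 0.0726 by limma).

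The contractile genes are not found in myoepithelium alone, so markers of the cell types an organoid preparation can hold were set beside them. Of 16 markers of vascular smooth muscle and pericytes, 0 were called, with a median of 0.15 (limma at an unadjusted limit of 0.05 gave 4 higher and 0 lower), and 1 had a mean under 6. Their mean level was 7.87, 8.07 and 7.88 in WT1, WT2 and WT3 and 8.22, 8.14 and 7.90 in KO5, KO6 and KO7, again with KO5 as the highest. Cspg4 (NG2) differed by 0.58 (adjusted p = 0.177 by limma) and Rgs5, a pericyte marker, by 0.56 (adjusted p = 0.0729 by limma). Their part in the levels of the contractile genes was not tested. Skeletal muscle markers were dim, as 13 of 14 had a mean under 6, and 0 were called (limma at an unadjusted limit of 0.05 gave 0 higher and 2 lower). The 2 with the widest differences were Tnnc2, at -0.51 (adjusted p = 0.0739 by limma), and Mylpf, at -0.45 (adjusted p = 0.127).

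Basal epithelial markers are those of the layer that myoepithelium belongs to, such as its keratins and adhesion genes. They had a median of 0.21 over 14 of 15 measured, with 10 differences above 0 and 4 below. All of them had a mean of at least 6. Their mean level was 9.02, 8.88 and 9.05 in WT and 9.30, 9.11 and 9.25 in KO. Limma at an unadjusted limit of 0.05 gave 5 higher and 0 lower. For 5 of the 14 every KO array was above every WT array, for 0 every KO array was below, and 9 overlapped. Besides Itgb4 and Dst, given below, the genes with KO above were Jag2, Itga6 and Lama3, at 0.418, 0.296 and 0.205. The keratins Krt5, Krt14 and Krt17 differed by 0.09, 0.13 and -0.03, with overlap between the groups. Itgb4, the hemidesmosome integrin, was called higher at 1.12 (adjusted p = 0.122 by limma), but was at -0.019 with the covariate for the 3' minus 5' difference and was not called without any 1 array other than WT1, at 0.91 to 1.25. Dst, dystonin, a hemidesmosome linker, differed by 0.55 (adjusted p = 0.136 by limma), and by 0.17 with the covariate. Over 17 of 18 luminal markers the median was 0.12, and Ltf, lactotransferrin, was called lower at -1.90 (adjusted p = 0.115 by limma). That call was lost with the covariate, at -1.88, and without WT1, WT2, WT3 or KO6, at -2.11 to -1.89. Elf5, a regulator of alveolar cells, differed by -0.63 (adjusted p = 0.442 by limma), by -0.009 with the covariate and by -0.19 without KO6.

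The lists of fibroblast and endothelial markers had the highest medians, though their difference from the contractile set was not tested. The fibroblast list had a median of 0.56 over 13 genes with 3 called higher, Clec3b at 1.53, Col1a1 at 1.43 and Fbln2 at 1.36 (adjusted p = 0.0571, 0.0492 and 0.0492 by limma). Of its differences 12 were above 0 and 1, that of Pdgfra at -0.18, was below. Lum, Dpt and Dcn were at 0.04, 0.14 and 0.31, and the groups overlapped for each of these genes and for Pdgfra. With the covariate for the 3' minus 5' difference Col1a1, at 1.48, was still called, and Clec3b and Fbln2, both at 0.90, were not. The mean level of the list was 9.91, 9.82 and 10.02 in WT and 10.71, 10.88 and 10.14 in KO. The endothelial list had a median of 0.60 over 13 genes with 2 called higher, Cldn5 at 1.24 and Tie1 at 1.16 (adjusted p = 0.0401 and 0.125 by limma). With the covariate Cldn5, at 1.42, was still called, and Tie1, at 0.18, was not. Tie1 was also not called without WT2, WT3, KO5 or KO6, at 0.93 to 1.09. The mean level of the endothelial list was 9.28, 9.23 and 8.90 in WT and 9.98, 9.73 and 9.52 in KO. The mean level of both lists was higher on each KO array than on each WT array. This was not particular to them. It also held for the basal epithelial list, whose levels are given above, and for the cytoskeletal partners and paralogues. For the partners and paralogues the lowest KO array was KO7, at 10.29, and the highest WT array was WT1, at 10.26. The mean level of the 10 contractile genes overlapped between the groups, at 10.91, 11.16 and 11.32 in WT and 11.46, 11.22 and 11.01 in KO. Gene by gene, on the brightest probe set, the groups overlapped for 7 of 13 fibroblast markers and 7 of 13 endothelial markers. They overlapped for all 10 contractile genes and for 13946 of all 18193 genes. Fibroblasts also make the non-muscle forms of caldesmon and tropomyosin, and the part of these cells in the Cald1 and Tpm1 values was not tested. Immune markers had a median of -0.48 over 13 of 14 measured, with C1qb called lower at -1.19 and Fcgr3 at -1.08 (adjusted p = 0.0887 and 0.057 by limma). Neither was called with the covariate, at -1.09 and -1.10, or without WT2, at -0.96 and -0.98, nor was C1qb without KO5, at -1.02, or Fcgr3 without KO7, at -0.96. Adipocyte markers had a median of 0.09 over 7 of 10 measured, with 4 differences above 0 and 3 below. Limma called 0 of these markers, as it did at an unadjusted limit of 0.05. The widest differences among them were those of the adipokine genes Retn, at -0.81, and Adipoq, at -0.66 (adjusted p = 0.302 and 0.683 by limma), which were at 0.42 and 1.48 with the covariate.

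**Figure D5:**
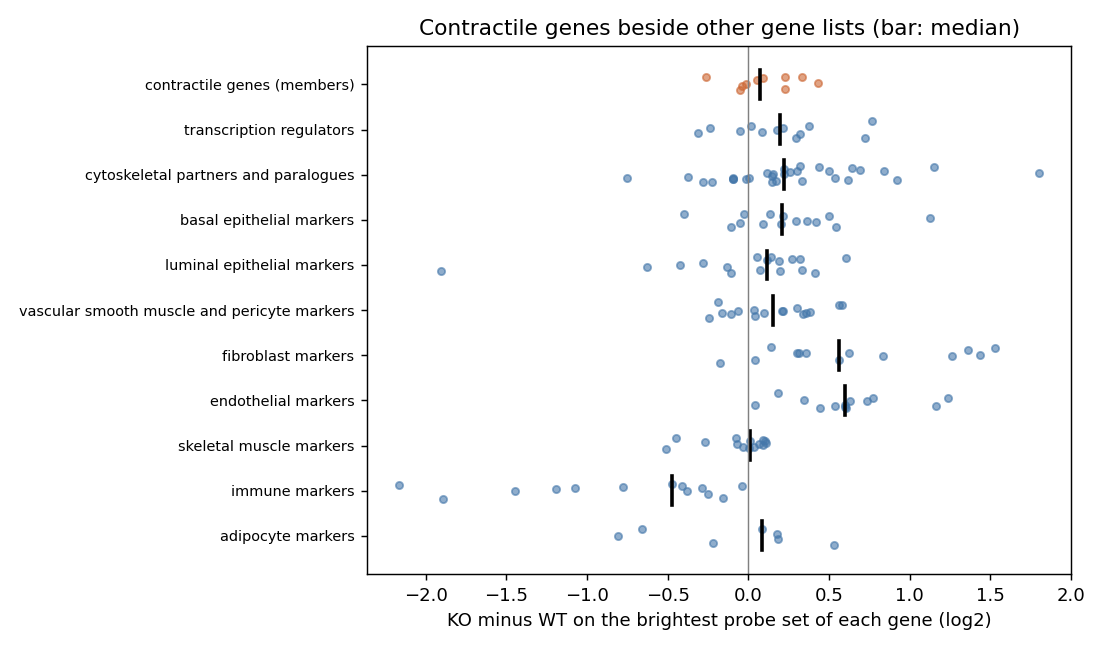
Difference between KO and WT (log2) on the brightest probe set of each gene, for the 10 contractile genes (orange) and 10 lists set beside them (blue), with a black bar at the median of each list. The contractile genes lie within 0.43 of 0 with a median of 0.07, while the medians of the fibroblast and endothelial lists are 0.56 and 0.60.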

How the data were processed

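For 6 arrays, 3 WT and 3 KO, the deposited values are log2 values from RMA, of a release that the sources used here do not give. The authors' methods name simpleaffy for normalization and limma for testing. RMA quantile normalizes the arrays, so a shift of all genes would not be seen. The values were used as deposited. Of 45101 probe sets, 64 controls were left out, which leaves 45037, and genes were named through the 34945 of them with a single symbol. KO was compared with WT by lmFit and eBayes in limma 3.58.1 (R 4.3.3), with Benjamini-Hochberg adjustment across all probe sets. The step was tested on simulated data. The 10 genes, the gene lists and the alternatives were chosen with earlier results of these data known.

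Named were all probe sets of the 10 genes, Wwox and, of each list, up to 4 called genes or the 2 with the widest differences. The any-probe-set calls and genes with a CArG box were named after their values were seen. So were SRF, the basal keratins, Jag2, Itga6, Lama3, Pdgfra, Lum, Dpt and Dcn. Of the listed symbols, Mkl1, Mkl2, Gucy1a3 and Gucy1b3 were older names and were updated. Genes with no probe set of 1 symbol, such as Rock2 and Ednra, were not analysed here. The result of 1 gene list on its own is not reported here. Promoters came from RefSeq (GRCm38.p6). The alternatives were quantile and cyclic loess normalization, centring on ribosomal protein genes, a minimum mean of 6, a trended robust prior, array weights, other limits, a replicate block, a covariate for RNA quality and each array left out. The number of arrays limits the precision. Figures were drawn in matplotlib 3.10.9 (Python 3.11.15).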

Additional observations from a re-analysis of the deposited data

How the results depend on the processing

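The count of contractile probe sets called higher was 3, and 0 were lower, under each normalization, array weights, a trended robust prior, the minimum mean of 6 and the replicate block. It was 3 or 4 with an array left out, and 4 without WT2. These counts are a description and support nothing, since the genes were chosen on the same values. The count was 1 with the covariate for the 3' minus 5' difference, 1 at an adjusted p under 0.05 and 7 at an unadjusted p under 0.05, both without a fold limit. The median of the brightest probe sets was 0.42 with that covariate and between -0.02 and 0.19 with an array left out. The count of other contractile genes called higher, 2, was 0 with the covariate, 0 at an adjusted p under 0.05, 11 at an unadjusted p under 0.05 (with 2 lower) and 8 when any of a gene's probe sets could count. With an array left out it ran from 1, without WT2, WT3, KO5 or KO6, to 5, without WT1. With the covariate Flna was at -0.04 and Itgb4 at -0.019. The cause of these shifts was not tested. No pairing of mice by replicate number was used in the main comparison. The correlations of same-numbered deviations were -0.16, 0.16 and 0.10, and 3 of 6 arrays matched their own number best. With so few arrays these values cannot exclude a pairing. The replicate block left the other contractile genes called higher at 2. The 3 dimmest contractile probe sets, with means under 5, lie where signal over background limits what can be seen.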
